A study of Mus musculus with 12 samples.

Results

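Mitosis and chromosome segregation genes encode the machinery that condenses chromosomes, attaches them to the spindle, parts the sister chromatids and divides the cell. The genes described here were chosen by name as known components of that machinery, and every chosen gene had a value, which makes 54 of the 17536 genes measured. They were measured by RNA-seq in 12 libraries of mouse chondrocytes, the cells of cartilage, from the superficial zone (SFZ) and the deep zone (DZ) of the joint ends of long bones. The mice were 5 days old, of a strain that the sample labels give as C57BL/6 and the study as a C57BL/6J background. R3-Cntl mice carried floxed Runx3 alleles (Runx3 fl/fl) without Cre, and R3-cKO mice carried the same alleles together with Col2a1-Cre, so that Cre was made only in cells that had expressed Col2a1. Runx3 encodes a transcription factor of cartilage, bone and immune cells. Trypsin and then type I collagenase released the SFZ cells. A second, longer collagenase step on the remaining cartilage released the DZ cells. The study's culture methods plate such cells as monolayers, and the time between isolation and RNA collection is not given in the sources used here. Each genotype and zone had n = 3 libraries, and the study names 3 mice per genotype, which were littermates. The labels do not tie a replicate number to a mouse or a litter.

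In dividing cells Cdk1 bound to cyclin A or cyclin B drives entry into mitosis, and the spindle checkpoint holds the anaphase-promoting complex (APC/C) in check until every kinetochore is attached. The APC/C then marks securin and cyclin B for destruction, separase opens the cohesin rings, and the central spindle guides the cleavage of the cell. Most of these genes are transcribed in the G2 phase and mitosis, under the DREAM and MuvB complexes, B-Myb and FoxM1, so that their RNA in a tissue reflects how many cells are dividing. In a bulk library fewer dividing cells and less RNA per dividing cell cannot be told apart. In newborn epiphyseal cartilage chondrocytes still divide, and they stop dividing as they become hypertrophic.

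Values are FPKM, the fragments counted on a gene divided by its length and by the depth of the library, as the authors scaled them, and the sum over all genes lay between 392241 and 429213 FPKM. From the spacing of the lowest values, 1 FPKM on a transcript of 1 kb was estimated to stand for 26.3 to 30.7 fragments, depending on the library. Runx3 (Entrez gene 12399, mm9 chromosome 4, 134676567 to 134733905, forward strand) checks the labels. In the SFZ its R3-Cntl values were 10.73, 5.98 and 6.65 FPKM against 11.83, 9.07 and 3.42 FPKM for the R3-cKO label (exact two-sided permutation p = 1). The DZ values were 12.67, 12.65 and 7.66 FPKM against 15.95, 12.66 and 8.14 FPKM (exact permutation p = 0.6). The mean log2 level under the R3-cKO label differed from that of R3-Cntl by -0.04 in the SFZ and 0.13 in the DZ. A loss of Runx3 RNA was thus not seen in either zone, and a value for the whole gene does not show whether its floxed part was present, so these are called the libraries labelled R3-cKO throughout. The cell type labels were checked with marker genes. All 9 chondrocyte markers were at 1 FPKM or more in every library, led by Col2a1, with sums of 5228 to 15380 FPKM in the SFZ and 16136 to 35693 FPKM in the DZ. The 8 superficial zone markers summed to between 212 and 1174 FPKM in SFZ libraries and between 3.68 and 17.9 FPKM in DZ libraries.

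The summed level of the 54 genes differed several-fold among the 3 libraries of each group. In the SFZ it was 603.6, 1109.5 and 1917 FPKM for R3-Cntl numbers 1 to 3, and 426, 1604 and 198 FPKM for those labelled R3-cKO. In the DZ it was 357, 861 and 289 FPKM (R3-Cntl) and 735, 1443 and 252 FPKM (R3-cKO label). Every group thus held a low and a high library, and the 4 groups overlapped. R3-Cntl SFZ library 3 stood highest and the SFZ library 3 labelled R3-cKO stood lowest of all 12. The means were 1210.0 ± 662 FPKM (SD, n = 3) for R3-Cntl SFZ, 743 ± 755 for R3-cKO SFZ, 502 ± 312 for R3-Cntl DZ and 809.8 ± 599 for R3-cKO DZ. The highest sum within a group was 3.18, 8.09, 2.98 and 5.72 times the lowest, in the same order of groups. As a share of all FPKM the 54 genes made up 0.0480% in the lowest library and 0.460% in the highest. In R3-Cntl SFZ library 3, 48 of the 54 genes reached 10 FPKM, against 3 in the SFZ library 3 labelled R3-cKO. Quantile normalization and median-of-ratios size factors moved each of the 12 sums by less than 1 SD of its group.

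**Figure D1:**
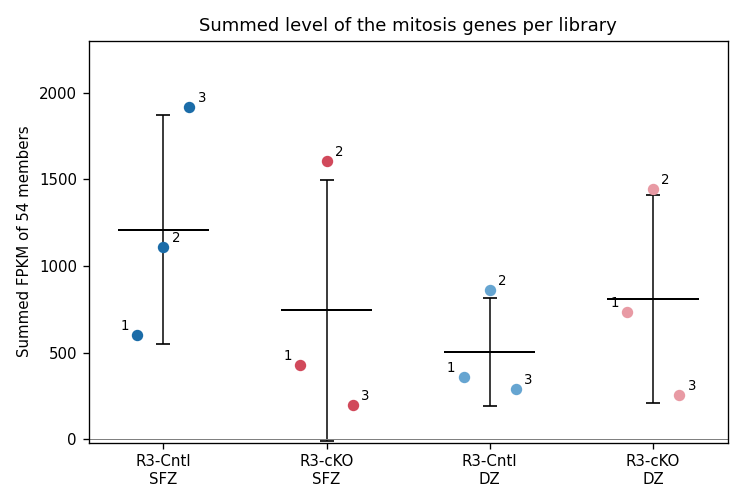
Summed FPKM of the 54 genes (vertical axis) in each library of the 4 groups (horizontal axis), with points numbered by replicate, the group mean as a horizontal line and 1 SD as bars (n = 3). The libraries run from 198 FPKM in the SFZ library 3 labelled R3-cKO, a group whose bar reaches below 0, to 1917 FPKM in R3-Cntl SFZ library 3, and all groups overlap.

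The genes kept nearly the same order of libraries. Within R3-Cntl SFZ, R3-cKO SFZ and R3-cKO DZ, 53 of 54 genes ranked the 3 libraries as the sum did, and Pttg1 was the exception in each. In R3-Cntl DZ, where the lower 2 sums were close, 42 of 54 did. Among the 11359 genes averaging 1 FPKM or more, the same orders were found for 22.4% in R3-Cntl SFZ, 29.2% in R3-cKO SFZ, 22.8% in R3-Cntl DZ and 32.9% in R3-cKO DZ. Over all 12 libraries, 52 genes were highest in R3-Cntl SFZ library 3 and 51 lowest in the SFZ library 3 labelled R3-cKO. The ratio of the highest to the lowest library had a median of 14.8 over the 53 genes without a listed 0, against 1.85 over 11318 genes. It was over 5 for 50 of the 53, against 13.8% of all genes, and under 3 for 2 of them, Bub3 at 1.85 and Pttg1 at 1.87, against 75.9% of all genes. Birc5 had the widest ratio, at 23.6. Smc4 followed the 2 flat genes at 3.53.

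**Figure D2:**
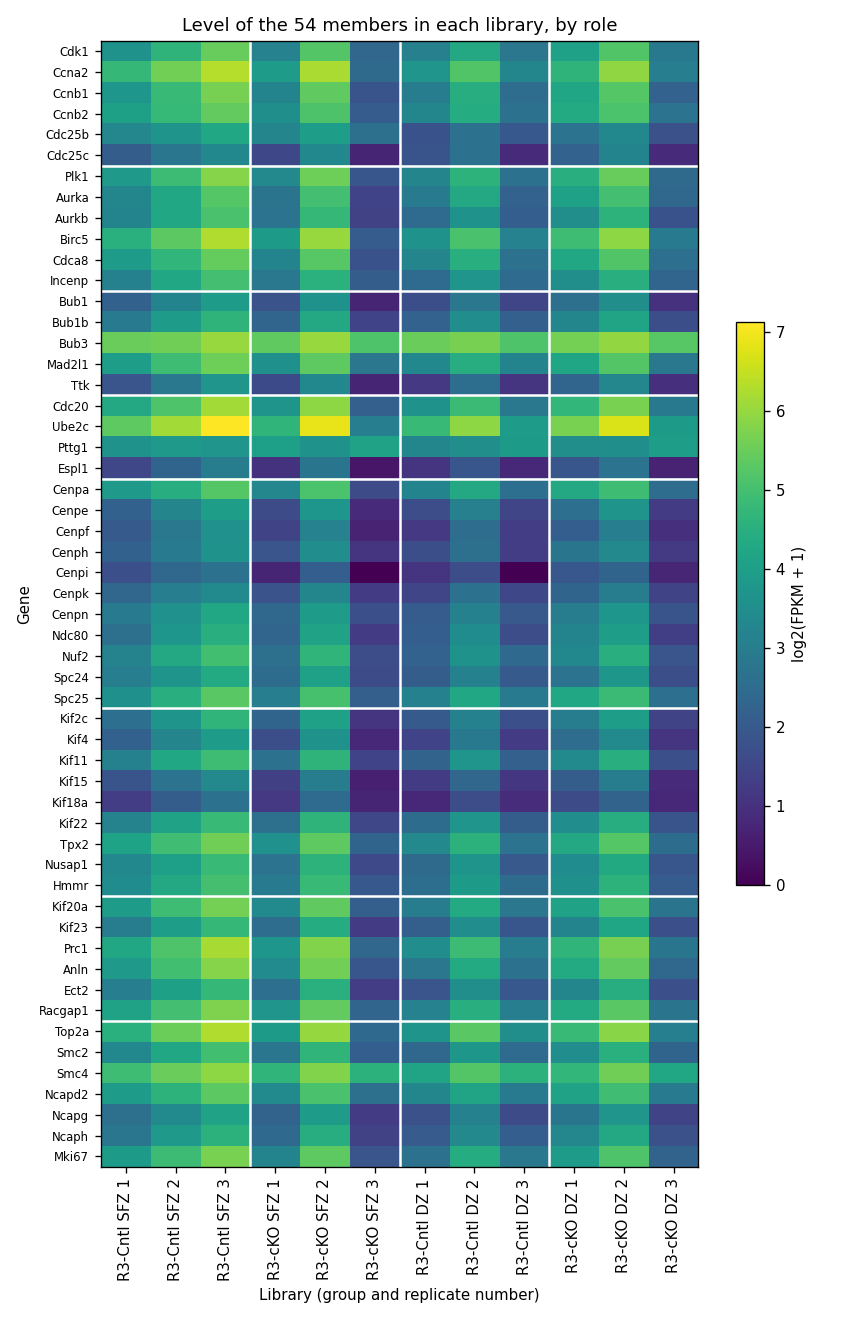
Level of each of the 54 genes (vertical axis, ordered by role, white lines between roles) in each of the 12 libraries (horizontal axis, by group and replicate number), coloured by log2(FPKM + 1) from 0 to 7.13. Columns of R3-Cntl SFZ 3, R3-cKO SFZ 2 and R3-cKO DZ 2 are bright over nearly all genes and that of R3-cKO SFZ 3 is dark, while Bub3 and Pttg1 keep nearly 1 colour.

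Promoters are shown because the genes move together, and because Bub3, Pttg1 and Cdc25b depart from the rest in different ways. RefSeq promoters of build GRCm38.p6, from 250 bases before to 50 bases after the start, were at hand for 46 of the 54 genes, as 51 promoters. Ccna2, Cdc25c, Aurkb, Incenp, Spc24, Tpx2, Kif20a and Smc4 had no entry. The CHR element, TTTGAA or TTCGAA on either strand, to which MuvB complexes are known to bind, was in 37 of the 51 promoters (72.5%) and in 19.2% of 32851 promoters of all genes. In the 250 bases before the start alone it was in 41.2% and 17.1%. The CCAAT box, read as CCAAT on either strand and known as the binding motif of NF-Y, was in 78.4% against 37.4%, and both elements together were in 64.7% against 7.52%. E2F-like letters, TTTGGCGC, TTTCCCGC or TTTCGCGC on either strand, were in 9.8% against 1.84%, and the Runx letters TGTGGT or TGCGGT in 17.6% against 22.4%. The 4 motifs were searched separately, and a match was not required to be free of the others. The 200 bases before the start are printed 5′ to 3′ on the strand of the gene, with CHR and CCAAT letters of either strand in capitals. They lie at chr10:69352913-69353112, reverse strand, for Cdk1, at chr2:164769729-164769928, forward strand, for Ube2c, and at chr11:99024190-99024389, reverse strand, for Top2a. Those of Bub3 lie at chr7:131560170-131560369, forward strand, before the first of its 2 listed starts, those of Pttg1 at chr11:43425982-43426181, reverse strand, and those of Cdc25b at chr2:131186748-131186947, forward strand.
Cdk1: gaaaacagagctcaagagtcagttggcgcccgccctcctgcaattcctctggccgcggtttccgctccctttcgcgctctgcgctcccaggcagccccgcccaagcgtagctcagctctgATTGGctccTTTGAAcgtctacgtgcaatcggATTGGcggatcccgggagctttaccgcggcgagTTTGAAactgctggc
Ube2c: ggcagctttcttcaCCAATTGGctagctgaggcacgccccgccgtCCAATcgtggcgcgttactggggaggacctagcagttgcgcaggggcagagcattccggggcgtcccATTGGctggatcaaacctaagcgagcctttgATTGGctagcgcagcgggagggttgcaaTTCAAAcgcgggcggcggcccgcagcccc
Top2a: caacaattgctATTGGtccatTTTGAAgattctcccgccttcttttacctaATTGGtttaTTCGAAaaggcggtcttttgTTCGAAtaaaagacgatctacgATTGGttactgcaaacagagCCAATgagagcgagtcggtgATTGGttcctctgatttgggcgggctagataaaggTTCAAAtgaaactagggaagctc
Bub3: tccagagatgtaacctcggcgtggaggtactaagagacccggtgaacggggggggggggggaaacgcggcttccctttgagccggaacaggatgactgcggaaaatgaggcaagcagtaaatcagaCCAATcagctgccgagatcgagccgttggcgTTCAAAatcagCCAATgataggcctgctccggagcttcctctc
Pttg1: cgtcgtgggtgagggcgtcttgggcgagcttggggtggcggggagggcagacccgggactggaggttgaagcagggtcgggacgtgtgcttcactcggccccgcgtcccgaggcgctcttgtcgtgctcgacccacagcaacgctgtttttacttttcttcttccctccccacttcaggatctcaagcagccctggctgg
Cdc25b: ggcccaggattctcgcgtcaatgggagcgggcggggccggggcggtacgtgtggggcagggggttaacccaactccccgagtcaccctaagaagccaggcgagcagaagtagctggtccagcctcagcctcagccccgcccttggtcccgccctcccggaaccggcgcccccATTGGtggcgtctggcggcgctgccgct
Cdk1 had the CHR letters 71 and 15 bases before the start, and Ube2c had them once, 29 bases before. Top2a held 4 CHR and 5 CCAAT matches, the first CHR match 179 bases before the start. Bub3, whose level was nearly flat, also had the CHR letters, 43 bases before the start, with CCAAT 74 and 32 bases before. Pttg1 had neither motif in its 300 bases, but neither did Birc5, the gene with the widest ratio, nor Mad2l1, Nuf2, Kif18a, Nusap1 and Ncaph, so a lack of both was not particular to the flat gene. In Cdc25b the printed stretch held a CCAAT match 28 bases before the start, and its CHR match lay outside that stretch. These matches describe letters in a window and do not show binding.

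Entry into mitosis is represented by Cdk1, Ccna2, Ccnb1, Ccnb2, Cdc25b and Cdc25c, the kinase, its cyclins and the phosphatases that activate it. Their sum was lowest at 20.4 FPKM in the SFZ library 3 labelled R3-cKO and highest at 242 FPKM in R3-Cntl SFZ library 3, a ratio of 11.8. Cdk1 (Entrez gene 12534, mm9 chromosome 10, 68799383 to 68815686, reverse strand) was at 11.56, 23.64 and 43.28 FPKM (R3-Cntl SFZ, numbers 1 to 3, an order kept below) and at 7.97, 36.56 and 4.07 FPKM (R3-cKO SFZ). In the DZ it was at 7.62, 18.78 and 6.10 FPKM (R3-Cntl) and at 16.01, 35.54 and 6.32 FPKM (R3-cKO label). Library 2 was highest in 3 of the 4 groups and library 3 in the other, and the ranges of all groups overlapped. Ccna2, cyclin A2, had the highest mean of the 6, and measured 25.70, 48.13 and 80.18 FPKM (R3-Cntl SFZ) and 14.43, 73.04 and 4.57 FPKM (R3-cKO SFZ). Its DZ values were 12.14, 35.86 and 8.61 FPKM (R3-Cntl) and 24.10, 60.67 and 7.24 FPKM (R3-cKO label). Within each group the same library was highest as for Cdk1. Cdc25b, a phosphatase that removes inhibitory phosphates from Cdk1 (Entrez gene 12531, mm9 chromosome 2, 131012685 to 131024233, forward strand, sharing bases with Spef1 on the other strand), measured 8.94, 11.97 and 18.01 FPKM (R3-Cntl SFZ) and 8.44, 14.77 and 5.25 FPKM (R3-cKO SFZ). Its DZ values were 2.48, 5.50 and 2.90 FPKM (R3-Cntl) and 5.61, 9.10 and 2.40 FPKM (R3-cKO label). In R3-Cntl the SFZ and DZ values of Cdc25b did not overlap, and in the libraries labelled R3-cKO they did. Cdc25c had the lowest mean of these genes, 4.30 FPKM.

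The mitotic kinases Plk1, Aurka and Aurkb and the chromosomal passenger proteins Birc5, Cdca8 and Incenp, which place Aurora B on centromeres and correct faulty attachments, had the widest spread of any role. Their sum ran from 15.0 FPKM in the SFZ library 3 labelled R3-cKO to 277 FPKM in R3-Cntl SFZ library 3, a ratio of 18.5. Birc5, or survivin, had the highest mean of the 6, with values of 22.06, 39.06 and 76.84 FPKM (R3-Cntl SFZ) and 13.68, 64.05 and 3.25 FPKM (R3-cKO SFZ). In DZ libraries it was at 11.51, 32.72 and 7.99 FPKM (R3-Cntl) and 29.01, 59.71 and 6.84 FPKM (R3-cKO label). Its 3 highest values were in R3-Cntl SFZ library 3, R3-cKO SFZ library 2 and R3-cKO DZ library 2, and the groups overlapped. Incenp had the lowest mean of these genes, 12.2 FPKM, and the narrowest ratio, 9.37.

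The spindle checkpoint genes Bub1, Bub1b, Bub3, Mad2l1 and Ttk, whose products delay anaphase at unattached kinetochores, had the narrowest spread as a sum, from 43.7 to 160.1 FPKM (ratio 3.66). Bub3 (Entrez gene 12237, mm9 chromosome 7, 138703905 to 138715412, forward strand, sharing bases with Fgfr2 on the other strand) had the highest mean of the 5, 47.6 FPKM. It measured 44.13, 46.96 and 63.97 FPKM (R3-Cntl SFZ) and 40.78, 63.71 and 34.58 FPKM (R3-cKO SFZ). In the DZ its values were 44.22, 49.45 and 35.16 FPKM (R3-Cntl) and 48.61, 61.65 and 37.57 FPKM (R3-cKO label). Within each group the order of the libraries was that of the sum, on a compressed scale. Between zones it was not, since Bub3 was lower in DZ in 2 of 6 comparisons of libraries with the same genotype and number, as was Aurka, against 4 of 6 for 47 of the members, and the groups overlapped. Bub1 had the widest ratio of the 5, 20.9.

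Ube2c, the ubiquitin-conjugating enzyme of the APC/C, Cdc20, its mitotic activator, Pttg1, or securin, and Espl1, or separase, act at the start of anaphase. Ube2c (Entrez gene 68612, mm9 chromosome 2, 164595398 to 164604322, forward strand, sharing bases with Tnnc2 on the other strand) had the highest mean of all 54 genes, 55.6 FPKM. In the SFZ it measured 40.26, 69.21 and 138.88 FPKM (R3-Cntl) and 24.55, 117.44 and 7.26 FPKM (R3-cKO label). DZ values of Ube2c were 27.20, 59.16 and 14.10 FPKM (R3-Cntl) and 50.85, 104.27 and 13.77 FPKM (R3-cKO label). Within each group the highest and lowest libraries were those of Cdk1. Pttg1 (Entrez gene 30939, mm9 chromosome 11, 43233752 to 43239753, reverse strand), which holds separase inactive until anaphase, did not share the pattern. It measured 11.42, 13.17 and 12.09 FPKM (R3-Cntl SFZ) and 15.18, 11.38 and 16.36 FPKM (R3-cKO SFZ). Its DZ values were 8.74, 10.48 and 13.64 FPKM (R3-Cntl) and 10.45, 10.66 and 15.06 FPKM (R3-cKO label). Pttg1 was highest in the SFZ library 3 labelled R3-cKO, in which 51 of the 54 genes were lowest. Separase, at a mean of 2.80 FPKM, had a ratio of 20.6 between its highest and lowest library, against 1.87 for Pttg1. The RNA of the inhibitor thus varied less than that of its target enzyme, and their proteins were not measured here.

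**Figure D3:**
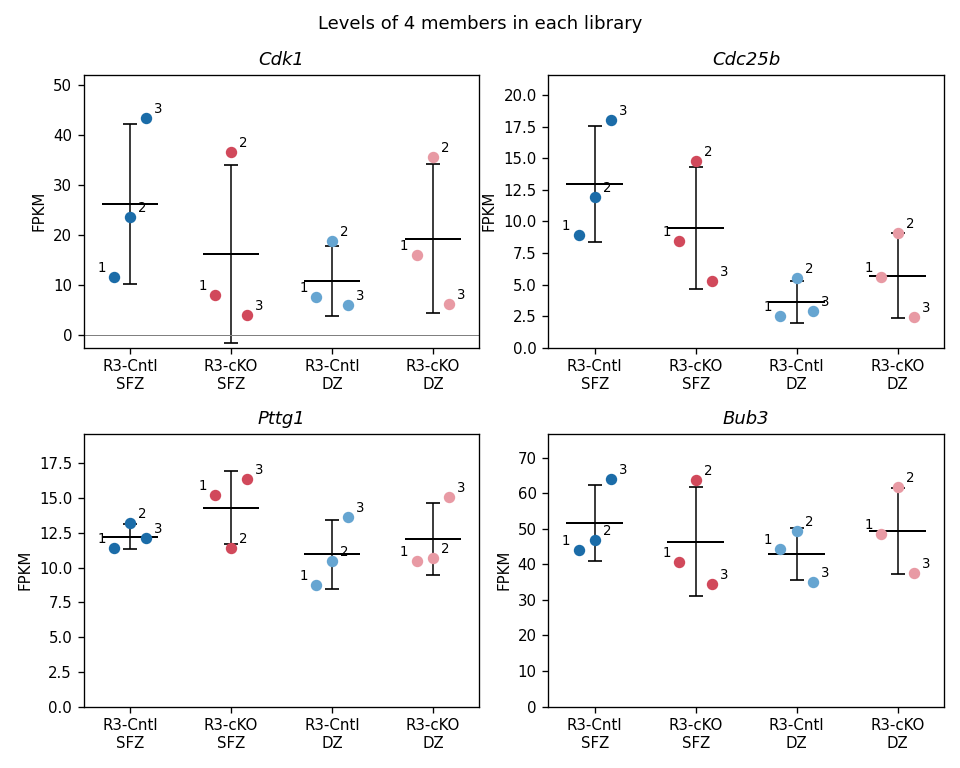
FPKM (vertical axes) of Cdk1, Cdc25b, Pttg1 and Bub3 in each library of the 4 groups (horizontal axes), with points numbered by replicate, the mean as a line and 1 SD as bars (n = 3). Cdk1 runs from 4.07 to 43.28 FPKM and Cdc25b from 2.40 to 18.01 FPKM, whereas Pttg1 stays between 8.74 and 16.36 FPKM and Bub3 between 34.58 and 63.97 FPKM.

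The 11 centromere and kinetochore genes, Cenpa, Cenpe, Cenpf, Cenph, Cenpi, Cenpk, Cenpn, Ndc80, Nuf2, Spc24 and Spc25, encode the centromeric histone, the proteins built on it and the NDC80 complex that holds microtubules. Their sum ran from 17.7 to 217 FPKM (ratio 12.3). Cenpa, the centromeric form of histone H3, had the highest mean over the 12 libraries, though Spc25 was above it in 5 of them. It measured 13.52, 20.77 and 36.86 FPKM (R3-Cntl SFZ), 8.90, 33.55 and 2.16 FPKM (R3-cKO SFZ), 8.33, 18.62 and 5.03 FPKM (R3-Cntl DZ) and 18.85, 28.92 and 4.88 FPKM (R3-cKO DZ). Cenpf, a large protein of the outer kinetochore, was at 3.04, 6.17 and 11.17 FPKM (R3-Cntl SFZ), at 1.77, 7.94 and 0.65 FPKM (R3-cKO SFZ), at 1.29, 4.82 and 1.46 FPKM (R3-Cntl DZ) and at 3.35, 7.24 and 0.93 FPKM (R3-cKO DZ). Spc24, a subunit at the centromere end of the NDC80 complex, was at 7.21, 11.93 and 19.46 FPKM (R3-Cntl SFZ), at 4.69, 15.93 and 2.10 FPKM (R3-cKO SFZ), at 3.32, 7.84 and 3.09 FPKM (R3-Cntl DZ) and at 5.51, 12.76 and 2.25 FPKM (R3-cKO DZ). Within each group all 3 genes were highest and lowest in the same libraries as Cdk1, apart from the close values of R3-Cntl DZ libraries 1 and 3 of Cenpf, and their groups overlapped. Cenpi, a protein of the inner kinetochore encoded on the X chromosome, had the lowest mean of the 54 genes, 2.25 FPKM. It was at 2.36, 4.35 and 5.40 FPKM (R3-Cntl SFZ), at 0.67, 3.38 and 0 FPKM (R3-cKO SFZ), at 1.15, 2.21 and 0 FPKM (R3-Cntl DZ) and at 2.81, 3.95 and 0.69 FPKM (R3-cKO DZ). It was the only member with a listed 0, which occurred in R3-cKO SFZ library 3 and R3-Cntl DZ library 3, and in R3-Cntl its SFZ and DZ values did not overlap.

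Spindle motors and spindle proteins were represented by Kif2c, Kif4, Kif11, Kif15, Kif18a, Kif22, Tpx2, Nusap1 and Hmmr, with sums from 15.4 to 216 FPKM (ratio 14.0). Tpx2, which activates Aurora A on spindle microtubules, was the most abundant. Its values were 16.52, 29.82 and 47.26 FPKM (R3-Cntl SFZ), 11.24, 39.83 and 3.87 FPKM (R3-cKO SFZ), 9.29, 23.15 and 5.59 FPKM (R3-Cntl DZ) and 18.86, 37.02 and 4.76 FPKM (R3-cKO DZ). Ratios between the highest and lowest library ran from 7.78 for Kif18a to 21.0 for Kif2c, a motor that takes microtubules apart. The central spindle and cytokinesis genes Kif20a, Kif23, Prc1, Anln, Ect2 and Racgap1 had a sum between 17.1 and 282 FPKM (ratio 16.5), and each of the 6 had a ratio of at least 13.2. Prc1, which bundles the microtubules of the central spindle, was at 17.88, 34.92 and 72.72 FPKM (R3-Cntl SFZ), 12.52, 54.12 and 4.08 FPKM (R3-cKO SFZ), 10.33, 28.31 and 7.08 FPKM (R3-Cntl DZ) and 24.37, 49.72 and 5.78 FPKM (R3-cKO DZ). For both genes R3-Cntl SFZ library 3 was highest and R3-cKO SFZ library 3 lowest, and the groups overlapped.

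Chromosome structure was represented by the condensin genes Smc2, Smc4, Ncapd2, Ncapg and Ncaph, by Top2a, the topoisomerase that untangles sister chromatids, and by Mki67, the proliferation antigen that coats mitotic chromosomes. Their sum ran from 41.5 to 296 FPKM (ratio 7.12). Top2a was at 21.87, 45.48 and 77.27 FPKM (R3-Cntl SFZ), 13.81, 63.33 and 4.37 FPKM (R3-cKO SFZ), 11.98, 38.50 and 10.55 FPKM (R3-Cntl DZ) and 26.89, 57.51 and 7.36 FPKM (R3-cKO DZ). Mki67 was at 13.81, 28.84 and 50.50 FPKM (R3-Cntl SFZ), 8.34, 40.19 and 2.67 FPKM (R3-cKO SFZ), 5.44, 20.34 and 6.30 FPKM (R3-Cntl DZ) and 14.12, 35.08 and 3.81 FPKM (R3-cKO DZ). Within each group both were highest in the library that was highest for Cdk1. Smc4, an ATPase of condensin, had a narrower range, at 29.36, 43.92 and 59.24 FPKM (R3-Cntl SFZ), 24.51, 54.15 and 22.95 FPKM (R3-cKO SFZ), 16.78, 36.15 and 22.77 FPKM (R3-Cntl DZ) and 25.22, 46.85 and 18.42 FPKM (R3-cKO DZ). Its lowest value was in R3-Cntl DZ library 1, and the gene overlaps the microRNAs Mir15b and Mir16-2 on its own strand. Of the 54 genes, 17 share bases with an annotated gene on the other strand and 6 with a gene on the same strand. Use of strand in the authors' counting is not stated, so reads of such pairs cannot be told apart, and Kif22 has 1 named pseudogene.

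**Figure D4:**
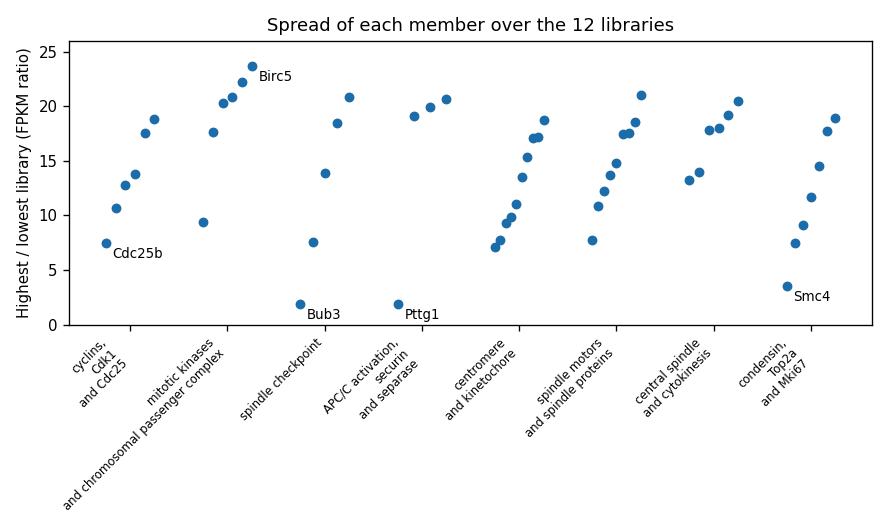
Ratio of the highest to the lowest library in FPKM (vertical axis) for each of the 53 genes without a listed 0, as points grouped by role (horizontal axis) and sorted within a role. Bub3 (1.85), Pttg1 (1.87) and Smc4 (3.53) lie below 5, and Birc5 is highest at 23.6.

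Whether loss of Runx3 alters the cells of the SFZ was the question of the comparison between genotypes in that zone. There 53 of the 54 genes had a lower mean log2 level in the libraries labelled R3-cKO, and none of the differences passed the test. Log2 fold changes are those of log2(FPKM + 1), a scale that understates differences of genes with low values. Their median was -1.08, against -0.01 over the 11537 genes tested, and they ran from -1.38 for Birc5 to 0.20 for Pttg1. In limma 0 of the 54 genes had an adjusted p under 0.05, as did 0 of all genes tested (0%), and at an unadjusted p under 0.05 there were 0 of the 54 and 34 of all genes. Cdk1 was at 26.2 ± 16.0 FPKM (SD, n = 3) in R3-Cntl and 16.2 ± 17.7 in the libraries labelled R3-cKO, and the difference was -1.0 in log2 (standard error, SE, 0.82). Cenpi had the smallest unadjusted p of the members in limma, 0.0554, with a log2 fold change of -1.33 (SE 0.56), followed by Cenpf with -1.04 (SE 0.70, unadjusted p = 0.185). For Mki67 and Top2a the log2 fold changes were each -1.34, with standard errors of 0.92 and 0.94. All 3 R3-cKO values lay above, or all 3 below, every R3-Cntl value for 0 of the 54 genes, and for 277 of all genes tested (2.4%), and with 3 libraries on each side the smallest p that an exact permutation allows is 0.1.

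Libraries of the same number moved in opposite directions in the SFZ, where the number does not pair them (same-number correlations of 0.787, -0.0944 and -0.415). The median log2 difference of the 54 genes, R3-cKO minus R3-Cntl, was -0.50 between libraries 1, 0.47 between libraries 2 and -3.20 between libraries 3. With 53 genes lower, 52 higher and 53 lower, respectively, nearly the whole set shifted each time, while the medians over 11359 genes were 0.00, 0.00 and -0.01. These directions depend on the numbering. R3-Cntl library 2 correlated best with R3-cKO library 3 (0.449), and R3-Cntl library 3 with R3-cKO library 2 (0.688). Matched so, the R3-cKO sum was lower each time, at 426 against 603.6, 198 against 1109.5 and 1604 against 1917 FPKM. That matching comes from the values and was not tested. Single libraries set the size of the difference. The median was -0.40 when R3-cKO SFZ library 3 was left out, -0.66 when R3-Cntl SFZ library 3 was, and -1.91 when R3-cKO SFZ library 2 was. In the last case 50 of the 54 genes were lower and 1 higher at an unadjusted limma p under 0.05, against 6.93% and 3.59% of the 11436 genes then tested, and 0 genes of any kind passed after adjustment.

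In the DZ the genotype comparison went the other way, with all 54 genes higher in mean log2 level in the libraries labelled R3-cKO and again none past the test. The median log2 fold change was 0.49, against 0.05 over the 11091 genes tested, and the range was 0.13 for Pttg1 to 0.77 for Anln. In limma 0 of the 54 genes were called, as were 0 of all genes (0%), with 0 members and 404 of all genes at an unadjusted p under 0.05. Cdk1 was at 10.8 ± 6.92 FPKM (SD, n = 3) in R3-Cntl and 19.3 ± 14.9 in those labelled R3-cKO, which differed by 0.64 in log2 (SE 0.64). The smallest unadjusted p among the members were those of Cenpi, 0.220, with a log2 fold change of 0.74 (SE 0.54), and Cdc25b, 0.327, with 0.45 (SE 0.43). Groups did not overlap for 0 of the 54 genes, against 891 of all genes tested (8.03%). In the DZ equal numbers deviated together, and with the number as a block 10 of the 54 genes (18.5%) were higher at an unadjusted p under 0.05, against 1278 of all genes (11.5%), and whether these shares differ was not tested. Cenpi then had the smallest adjusted p, 0.147 with a block standard error of 0.11, and 0 genes of any kind were called. Between libraries 1, 2 and 3 the median log2 difference of the members was 1.02, 0.72 and -0.20, with 54, 54 and 7 of them higher. Leaving out R3-cKO DZ library 2 turned the median to -0.03, with 21 genes higher and 32 lower. Without R3-Cntl DZ library 3 the median was 0.21, without R3-Cntl DZ library 2 it was 0.96, and without R3-cKO DZ library 3 it was 1.18. In the last case 14 of the 54 genes (25.9%) were higher at an unadjusted limma p under 0.05, against 5.44% of all genes, and 0 were called, while without each of the other 5 libraries 0 members reached that threshold.

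Marker genes of cell types also had other means under the R3-cKO label, none past the test. In the DZ 8 of 9 chondrocyte markers and 5 of 6 hypertrophic chondrocyte and osteoblast markers were lower in mean log2 level (medians -0.44 and -0.99), and 6 of 7 fibroblast markers were higher (median 0.51). At an unadjusted limma p under 0.05 these were 1 and 3 lower and 3 higher, against 1.15% of all genes lower and 2.5% higher. With the number as a block they were 5 and 4 lower and 4 higher, against 4.98% and 11.5%, and the smallest adjusted p was 0.0587. In the SFZ all 6 hypertrophic chondrocyte and osteoblast markers were lower (median -0.81). At an unadjusted limma p under 0.05, 2 of them were lower, against 0.113% of all genes. The 3 skeletal muscle markers tested were also lower (median -1.21), 0 of them at that threshold. Of 7 superficial zone markers tested, 4 were lower and 3 higher (median -0.24), with 1 lower at that threshold. The medians of chondrocyte and fibroblast markers were -0.03 and -0.15. All 4 Y-linked genes were lower in each zone, with medians of -1.93 in the SFZ and -1.53 in the DZ. The directions of these medians were the same under both scalings. Their part in the differences of the mitosis genes was not tested.

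The difference between the genotype effects of the zones was tested as an interaction over all 12 libraries and 11765 genes. It was positive for 53 of the 54 genes, with a median of 1.59 on the log2 scale against 0.05 over all genes, and Pttg1 was the exception at -0.07. In limma 0 of the 54 genes were called, as were 0 of all genes (0%). At an unadjusted limma p under 0.05 there were 99 of all genes and 1 member, Cenpi, at 2.06 (SE 0.86), and 0 members with a pseudocount of 0.1. Leaving out R3-cKO SFZ library 2 brought the count to 43 members, all positive, against 4.83% of the 11729 genes then tested, and the median to 2.42. Leaving out any other library gave 0 to 2 members, and 0 genes passed after adjustment in each case.

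Between the zones of R3-Cntl mice, all 54 genes had a lower mean log2 level in DZ than in SFZ libraries, and none passed the adjusted threshold. The SFZ and DZ libraries used here are the R3-Cntl libraries of the genotype comparisons above. The median log2 fold change, DZ minus SFZ, was -1.26 against -0.17 over the 11336 genes tested, from -1.61 for Anln to -0.16 for Pttg1. In limma 0 of the 54 genes were called, against 140 of all genes (1.24%). At an unadjusted p under 0.05, 23 of the 54 were lower in DZ, against 2542 of all genes (22.4%). Cdc25b was at 13.0 ± 4.62 FPKM in SFZ and 3.63 ± 1.64 FPKM in DZ (SD, n = 3), a log2 fold change of -1.60 (SE 0.32) that missed the threshold (adjusted p = 0.0605 in limma). Spc24 was at 12.9 ± 6.18 and 4.75 ± 2.68 FPKM (SD, n = 3), a log2 fold change of -1.27 (SE 0.42; adjusted p = 0.122 in limma). For Cdk1 the log2 fold change was -1.17 (SE 0.54). Every DZ value was below every SFZ value for 2 of the 54 genes, Cdc25b and Cenpi, and for 3001 of the 11336 genes tested. Every DZ value was above for 0 of the 54 and for 676 of all genes, so that 3677 of all genes (32.4%) did not overlap. The exact two-sided permutation p of Cdc25b and of Cenpi was 0.1, the smallest possible.

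These counts moved with the scaling and with single libraries. Quantile normalization shifted the median of all genes in this comparison from -0.17 to 0.05, and median-of-ratios size factors shifted it to 0.00. The median of the members was then -1.02 and -1.08, with 53 of the 54 lower in each case, and 2 and 4 members were lower at an unadjusted p under 0.05, against 9.69% and 11.8% of all genes tested. That count was 9 without a filter on low values (18.4% of all genes) and 2 with all 12 libraries in a single model (22.2%). Of all genes called, 17 were higher and 123 lower in DZ as deposited, 0 and 1 after quantile normalization, and 4 and 13 with median-of-ratios size factors. Without R3-Cntl SFZ library 1, 505 genes were called, Cdc25b among them (adjusted p = 0.0402), and 51 members were lower at an unadjusted p under 0.05, against 22.4% of all genes. Without R3-Cntl SFZ library 2, SFZ library 3, DZ library 1, DZ library 2 or DZ library 3, the genes called were 0, 3, 0, 0 and 4, and the members lower at an unadjusted p under 0.05 were 2, 1, 2, 52 and 2. The shares of all genes lower at that threshold were then 10.8%, 15.8%, 14.0%, 24.1% and 21.4%. Between R3-Cntl libraries of the same number, which does not pair them, the median log2 difference of the members was -0.72, -0.37 and -2.65. Of the members 53, 52 and 53 were lower in DZ.

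In the libraries labelled R3-cKO most members went the other way between zones, none past the test. Here 50 of the 54 genes had a higher mean log2 level in DZ and 4 a lower one, with a median log2 fold change of 0.32 against -0.09 over 11336 genes. In limma 0 of the 54 were called, against 2 of all genes (0.0176%), and 0 members had an unadjusted p under 0.05. The range was from -0.68 for Cdc25b (SE 0.49; adjusted p = 0.594 in limma) to 0.77 for Aurka. Pttg1 was also lower in DZ, with -0.23 (SE 0.20; adjusted p = 0.663 in limma), at 14.3 ± 2.60 FPKM in SFZ and 12.1 ± 2.60 FPKM in DZ (SD, n = 3). Groups overlapped for every member, so that 0 of 54 were apart, against 2380 of all genes tested (21%). With the replicate number as a block, 352 genes were called (3.11%) and 0 members, and Cdc25b came nearest with an adjusted p of 0.0515. At an unadjusted limma p under 0.05, 3 members were then higher in DZ and 1 lower, against 7.2% and 22.8% of all genes. The median log2 difference of the members was 0.74, -0.13 and 0.33 between libraries 1, 2 and 3. Without R3-cKO SFZ library 3 the median was -0.35 and without R3-cKO DZ library 2 it was -0.25, with 53 and 49 members lower in DZ. Cdk1, at 0.47 with all libraries, then turned to -0.15 and -0.10. Without SFZ library 2 the median was 1.12, without DZ library 3 it was 1.02, and without SFZ library 1 it was 0.18. Genes called were 1 without SFZ library 2, 5 without SFZ library 3 and 0 without each of the others.

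Over both genotypes, with genotype in the model, Cdc25b was the single member that differed between zones. Its mean was 11.2 FPKM over 6 SFZ libraries and 4.67 FPKM over 6 DZ libraries, and it was lower in DZ in 6 of 6 comparisons of libraries with the same genotype and number, the only member of which this held. The log2 fold change was -1.14 (SE 0.33; adjusted p = 0.0308 in limma and exact permutation p = 0.0216). The permutation left genotype out, and both tests took the 12 libraries as independent, although the study names 3 mice per genotype. All 54 genes had a lower mean in DZ, with a median of -0.45 against -0.14 over 11765 genes. Thus 1 of the 54 was called, against 2725 of all genes (23.2%), and whether these shares differ was not tested. Pttg1 followed with -0.20 (SE 0.13; adjusted p = 0.283 in limma), and Cdk1 was at -0.35 (SE 0.60). The call of Cdc25b was close to the threshold. It was lost after quantile normalization (log2 fold change -0.92, adjusted p = 0.0581) and with median-of-ratios size factors (-1.0, 0.0512), and Cdc25b was not tested where a mean of 10 FPKM was required. It was also lost without R3-Cntl SFZ library 2 (adjusted p = 0.0715), R3-Cntl SFZ library 3 (0.0619), R3-cKO SFZ library 2 (0.0556), R3-Cntl DZ library 1 (0.0717), R3-Cntl DZ library 3 (0.0599) or R3-cKO DZ library 3 (0.0669), with log2 fold changes between -1.10 and -0.98. Without each of the other 6 libraries it was kept, and the adjusted p over all 12 omissions ran from 0.0116 without R3-cKO DZ library 2 to 0.0717. Of all genes called, 506 were higher and 2219 lower in DZ, against 1237 and 915 after quantile normalization and 1053 and 1088 with median-of-ratios size factors, and without R3-Cntl SFZ library 2 there were 1624. The 2 scalings shifted the median of all genes to 0.03 and 0.00, and that of the members to -0.26 and -0.33.

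**Figure D5:**
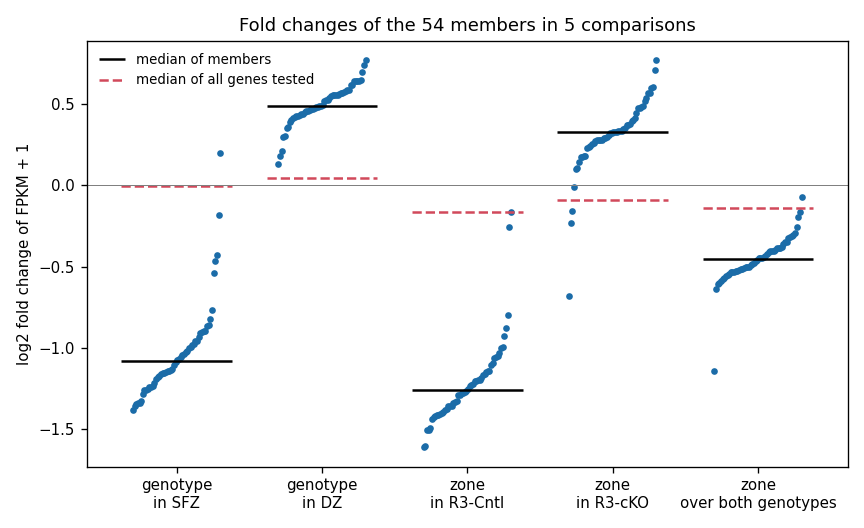
Log2 fold changes of FPKM + 1 (vertical axis) of the 54 genes, sorted as points, in 5 comparisons (horizontal axis), R3-cKO minus R3-Cntl for genotype and DZ minus SFZ for zone, with the median of the members as a black line and that of all genes tested as a dashed line. Medians of the members are -1.08, 0.49, -1.26, 0.32 and -0.45, and Cdc25b is the lowest point of the last 2 comparisons at -0.68 and -1.14.

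Other genes of the division cycle were grouped by function. Of 66 further mitosis genes, such as the remaining centromere proteins, with the highest means in Cks1b and Cks2, small proteins that bind Cdk1, 0 were called in any of the 5 comparisons, in which 0%, 0%, 1.24%, 0.0176% and 23.2% of all genes were, in the order that follows. Their median log2 fold changes were -0.81 and 0.41 between genotypes in the SFZ and DZ, -0.99 and 0.21 between zones in R3-Cntl and R3-cKO, and -0.37 between zones over both. Cks1b was at 36.56, 62.03 and 82.33 FPKM (R3-Cntl SFZ) and 29.51, 80.11 and 28.87 FPKM (R3-cKO SFZ). Cks2 was at 27.68, 51.46 and 82.50 FPKM and at 20.52, 68.24 and 9.54 FPKM in the same libraries, so both were high where Cdk1 was high. The 49 DNA replication genes, which act in S phase, had medians of -0.64, 0.39, -0.89, 0.14 and -0.38 in the same order, with 0 called against the same shares of all genes, so that a count of 0 stands against more than a few percent only over both genotypes. Their genes with the highest means were Pcna, the sliding clamp of DNA polymerases, and Rrm2, a subunit of ribonucleotide reductase. Rrm2 was at 17.72, 52.48 and 110.53 FPKM (R3-Cntl SFZ) and 13.96, 105.80 and 7.93 FPKM (R3-cKO SFZ), and Pcna at 77.57, 107.79 and 144.06 FPKM and at 61.64, 131.36 and 49.88 FPKM. In the SFZ both were highest and lowest in the libraries where the mitosis sum was. Over all 12 libraries the replication sum was highest in R3-Cntl SFZ library 3, at 1305 FPKM, and lowest in R3-cKO DZ library 3, at 323 FPKM, followed by 331 FPKM in R3-cKO SFZ library 3, which had the lowest mitosis sum.

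Further lists held subunits and regulators that are also present outside mitosis. The 16 APC/C genes, the ligase that Cdc20 activates, had medians of -0.03 and 0.08 between genotypes in the SFZ and DZ. Between zones over both genotypes their median was -0.12, and 1 of them was called, Anapc1, at -0.26. Within a genotype the zone median depended on the scaling. In R3-Cntl it was -0.18 as deposited, -0.02 after quantile normalization and 0.007 with median-of-ratios size factors. In R3-cKO these genes had medians of -0.02, 0.07 and 0.11 in the same order. Ube2s, with their highest mean, was at 123.93, 155.16 and 217.95 FPKM (R3-Cntl SFZ) and 106.68, 238.37 and 78.96 FPKM (R3-cKO SFZ), and Anapc5 stayed between 86 and 126 FPKM over all 12 libraries. Of 12 cohesin genes, whose rings hold sister chromatids, 3 were called lower in DZ over both genotypes. These were Smc1a at -0.53, Stag1 at -0.40 and Stag2 at -0.35, and the median of the list was -0.26. In R3-Cntl the cohesin zone median was -0.28 as deposited, -0.10 after quantile normalization and -0.09 with median-of-ratios size factors. In R3-cKO it was -0.15, -0.03 and -0.03 in the same order. Rad21, the subunit that separase cleaves, was at 52.67, 61.64 and 74.25 FPKM (R3-Cntl SFZ) and 45.87, 68.89 and 35.00 FPKM (R3-cKO SFZ). Of 15 DREAM, MuvB and FoxM1 regulators, 2 were called lower, Rbl2 at -0.48 and Nfyb at -0.28, with Tfdp1 and Rbbp4 highest in mean. A list of 17 genes held D cyclins, Cdk2, Cdk4, Cdk6, CDK inhibitors, Rb1, E2f1, E2f2 and E2f3. Of these, 2 were called lower, Cdkn1b at -0.29 and Cdkn2b at -1.08. Apart from Smc1a, the 7 other called genes were chosen after their values were seen, and these shares stand against 23.2% of all genes called. Cdkn1c, an inhibitor of cyclin-dependent kinases that is known in chondrocytes leaving the cycle, had the highest mean of the last list, though Cdk4 was above it in 5 of the 12 libraries. It was at 352.80, 136.54 and 99.78 FPKM (R3-Cntl SFZ) and at 330.46, 118.98 and 202.69 FPKM (R3-cKO SFZ). In DZ libraries Cdkn1c was at 282.90, 249.48 and 711.96 FPKM (R3-Cntl) and at 171.16, 98.65 and 508.51 FPKM (R3-cKO). Its highest values were in the DZ libraries 3, which had the lowest sums of the mitosis genes in their groups. Its 2 lowest were in R3-cKO DZ library 2 and R3-Cntl SFZ library 3, which had high sums. The SFZ library 3 labelled R3-cKO departed from this order. It had the lowest mitosis sum of all, and its Cdkn1c value of 202.69 FPKM lay below those of both SFZ libraries 1, 352.80 and 330.46 FPKM. Cdk4 lay between 166 and 256 FPKM.

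Marker genes of cell types also differed between libraries of a group, beside the sums of the mitosis genes. The superficial zone markers, of which Sfrp2 was highest in 4 of the 6 SFZ libraries, summed to 303, 786 and 249 FPKM (R3-Cntl SFZ) and to 257, 212 and 1174 FPKM (R3-cKO SFZ). The library with the least mitosis RNA thus had the most superficial zone RNA, with all 8 markers at 1 FPKM or more, and the 2 SFZ libraries with the most mitosis RNA had the least. The 7 fibroblast markers, led by Vim and Col1a1, summed to 4996, 10151 and 7184 FPKM (R3-Cntl SFZ) and to 5282, 6981 and 11891 FPKM (R3-cKO SFZ), and in DZ libraries to between 656 and 3818 FPKM. The 12 macrophage markers, led by Lyz2, summed to 200, 168 and 7.23 FPKM (R3-Cntl SFZ) and to 167, 16.0 and 78.4 FPKM (R3-cKO SFZ). They were lowest in the 2 SFZ libraries with the highest mitosis sums, with 2 of 12 at 1 FPKM or more in each. In DZ libraries they summed to between 3.35 and 26.2 FPKM. Over both genotypes limma called all 9 chondrocyte markers higher in DZ, and 6 of 7 superficial zone, 4 of 7 fibroblast and 9 of 10 macrophage markers tested lower, against 23.2% of all genes called. The 6 hypertrophic chondrocyte and osteoblast markers, with Spp1 or Col10a1 the most abundant, summed to between 333 FPKM in the SFZ library 3 labelled R3-cKO and 1164 FPKM in R3-Cntl DZ library 1. The 10 skeletal muscle markers reached 126 FPKM in R3-Cntl SFZ library 2 and at most 20.3 FPKM elsewhere. Osteoclast markers summed to between 40.7 and 179 FPKM, nearly all from Ctsk, with Dcstamp and Calcr both listed at 0 in 8 of the 12 libraries. Endothelial and keratinocyte markers stayed at or below 8.44 and 6.66 FPKM, and 7 of 8 erythroid markers had a value and summed to at most 0.32 FPKM. The 4 Y-linked genes, with Eif2s3y or Ddx3y highest in the 8 libraries where they reached 1 FPKM, summed to 42.9, 12.1 and 52.4 FPKM (R3-Cntl SFZ) and 28.3, 0.06 and 0.03 FPKM (R3-cKO SFZ). In the DZ their sums were 40.0, 16.8 and 17.0 FPKM (R3-Cntl) and 29.6, 0.01 and 0.03 FPKM (R3-cKO). Libraries 2 and 3 labelled R3-cKO were thus near 0 in both zones, and they held both the highest and the lowest mitosis sums of their groups. The part of cell types and of sex in the differences of the mitosis genes was not tested.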

How the data were processed

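RNA-seq values of 12 libraries were analysed. The authors deposited 1 value per gene and library, and the submitters' processing notes name Bowtie 0.12.2 and mm9. The deposited values are read as FPKM, a unit inferred because it is not written beside them, and the depositors name TMM scaling. Every column was matched to a library by its name, and 0 were left unmapped.

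Members were matched by symbol, and summed without further scaling. Tests used limma 3.58.1 in R 4.3.3 on log2(FPKM + 1), with a mean-variance trend, for genes reaching 1 FPKM in 3 or more libraries of the comparison, and Benjamini-Hochberg adjustment over all genes tested. Genes were called at an adjusted p under 0.05. Genotypes were compared within each zone and zones within each genotype, each on its own 6 libraries. Zone over both genotypes and the interaction used all 12. For named genes an exact permutation test, two-sided, was added. The limma fits were checked on simulated data with independent noise, in which the changed genes averaged at least 10 FPKM and had a small spread within groups. The members' library medians had an SD of 1.12 in log2 within groups, so the check does not cover genes of such spread. Other steps used Python 3.11.15 with pandas 2.3.3, NumPy 2.4.6 and matplotlib 3.10.9, and promoters were taken from RefSeq. Coordinates of genes are those of mm9.

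Values are given for Cdk1, Mki67 and Top2a, for the member with the highest mean in each of 8 roles and for the 2 members with the smallest unadjusted p in each of the 5 comparisons of genotype or zone. Of every other list the 2 genes with the highest means may be named. Members and lists were chosen with earlier results of these data known.

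Pairing by replicate number was checked by correlating libraries after removal of the group means, over 11359 genes. The labels give only the numbers and the study names littermates without saying which, so the pairing comes from the values. Same-number correlations were 0.653, 0.781 and 0.687 between genotypes in the DZ, and 0.418, 0.781 and 0.653 between zones in the libraries labelled R3-cKO. The main tests of these comparisons were unpaired, and fits with the replicate number as a block are given beside them. The alternatives were pseudocounts of 0.1 and 5, no filter, a mean of at least 10 FPKM, quantile normalization, median-of-ratios size factors, no trend, the replicate block, 1 model for all 12 libraries, omission of each library and promoters without the bases after the start.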

Additional observations from a re-analysis of the deposited data

How the results depend on the processing

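Directions of the members' medians held under every alternative that kept all libraries, in each of the 6 comparisons. The number of genes called between zones in R3-Cntl, 140 as deposited, was 88 and 29 with pseudocounts of 0.1 and 5, 0 without a filter, 8 where the mean had to reach 10 FPKM, 1 after quantile normalization, 17 with median-of-ratios size factors and 798 with all 12 libraries in a single model. In the libraries labelled R3-cKO the 2 genes called between zones became 1 with either pseudocount, 7 without a filter, 0 where the mean had to reach 10 FPKM and 165 in the single model. Over both genotypes a required mean of 10 FPKM left 1162 genes called and 0 members, and both scalings also left 0 members. The promoter share with CHR letters was 41.2% without the bases after the start. With the replicate block 352 genes were called between zones in R3-cKO, and, although the numbers do not pair the libraries there, 831 genes and 1 member, Cdc25b (adjusted p = 0.0417), between zones in R3-Cntl. Over both genotypes the replicate block gave 3965 genes called and an adjusted p of 0.0101 for Cdc25b, and it changed no other call of a member. For the interaction, where the SFZ libraries share only a number, the replicate block left 0 genes called, with 45 of the 54 members positive at an unadjusted limma p under 0.05 against 827 of 11765 genes (7.03%). Same-number correlations were 0.787, -0.0944 and -0.415 between genotypes in the SFZ and 0.575, 0.111 and -0.151 between zones in R3-Cntl, and not every library correlated best with its own number. R3-Cntl SFZ library 2 correlated best with library 3 of R3-cKO SFZ (0.449) and of R3-Cntl DZ (0.38). R3-Cntl SFZ library 3 correlated best with library 2 of R3-cKO SFZ (0.688) and of R3-Cntl DZ (0.58). Leaving out single libraries gave 0 to 505 genes called between zones in R3-Cntl with 0 to 1 members, 0 to 5 genes in R3-cKO, and 1624 to 2899 genes with 0 to 1 members over both genotypes. Medians of the members then ran from -1.91 to -0.40 between genotypes in the SFZ, -0.03 to 1.18 in the DZ, -1.72 to -0.85 between zones in R3-Cntl, -0.35 to 1.12 in R3-cKO, -0.84 to -0.19 over both and 0.92 to 2.42 for the interaction. Cdk1 between zones in R3-cKO changed from 0.47 to -0.15 without SFZ library 3, to -0.10 without DZ library 2 and to 1.30 without SFZ library 2. Apart from the smaller number of genes or libraries that some alternatives use, the cause was not tested. With 3 libraries per group, spreads within a group reached 12.9-fold at the median member. In the main tests the differences of the members could not be told from this spread, except that of Cdc25b between zones over both genotypes. That call of Cdc25b was lost under both scalings and without some single libraries. Genes of other lists were not run through the alternatives one by one. A value of 1 FPKM was estimated to stand for 26.3 to 30.7 fragments per kb of transcript, and values below 1 FPKM for fewer.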
